A study of Rattus norvegicus with 22 samples.

Results

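The proteasome genes of rat spinal cord were followed across 8 groups of arrays from a contusion study. A gene was taken if a probe set named it alone and its symbol began with Psma, Psmb, Psmc, Psmd or Psme and a digit, and its probe set of highest mean signal stood for it. This gave 41 genes of the 14217 represented in the same way. They comprise 7 genes of the alpha ring and 6 of the constitutive beta ring of the 20S core, 6 ATPases and 11 other subunits of the 19S cap, 3 chaperones that assemble the cap, and the PA200 cap gene Psme4. These 34 genes are called constitutive here. A further 5 genes, Psmb8, Psmb9, Psmb10, Psme1 and Psme2, code for the inducible subunits of the immunoproteasome and of its PA28 cap. The last 2, Psmc3ip and Psme3ip1, match by name only and are not subunits. The rat reference lists 48 protein-coding symbols that the rule takes, of which 41 were measured. Psmb6, the constitutive counterpart of Psmb9, and Psme3, a further PA28-family gene, share their probe sets with other symbols and have no value here, nor have Psma8, Psmb11, Psmb3l1, Psmb3l2 and Psmb6l1.

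The 20S core is a barrel of stacked rings. The outer alpha rings gate the entry, and the inner beta rings carry the protease sites, which lie on Psmb5, Psmb6 and Psmb7. The 19S cap binds proteins tagged with ubiquitin, and its ATPases unfold them and feed them into the core. Interferon gamma induces Psmb8, Psmb9 and Psmb10, which replace Psmb5, Psmb6 and Psmb7 in newly built cores and alter the peptides made for antigen presentation on class I molecules. PA28, built from Psme1 and Psme2, is an alternative cap. In the nervous system, immunoproteasome genes are best known from microglia and infiltrating immune cells, whereas the constitutive genes are used by every cell. The transcription factor Nfe2l1 is known to raise constitutive proteasome genes through antioxidant response elements when proteasome activity is short.

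Promoter sequences are shown for 4 genes on which the contrast of inducible and constitutive subunits turns. Each holds 250 bases before and 50 after the gene's start in the GRCr8 assembly, as RefSeq annotates it, and is written 5′ to 3′ on the gene's own strand. Psmb8 lies at chr20:4656982-4657281, minus strand, Psmb9 at chr20:4668750-4669049, plus strand, Psmb10 at chr19:50743243-50743542, minus strand and Psmb5 at chr15:32047330-32047629, minus strand. Capitals mark matches on either strand to the interferon-stimulated response element, GAAA followed by any 2 bases and a second GAAA (in Psmb8 and Psmb10), the gamma-activated site TTCNNNGAA (in Psmb8) and the antioxidant response element core TGACNNNGC (in Psmb5).
Psmb8: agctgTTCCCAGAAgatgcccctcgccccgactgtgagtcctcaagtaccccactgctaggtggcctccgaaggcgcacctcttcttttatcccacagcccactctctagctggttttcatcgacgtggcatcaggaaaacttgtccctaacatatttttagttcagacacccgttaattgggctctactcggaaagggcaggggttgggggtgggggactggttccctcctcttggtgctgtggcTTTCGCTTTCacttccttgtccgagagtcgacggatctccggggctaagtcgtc
Psmb9: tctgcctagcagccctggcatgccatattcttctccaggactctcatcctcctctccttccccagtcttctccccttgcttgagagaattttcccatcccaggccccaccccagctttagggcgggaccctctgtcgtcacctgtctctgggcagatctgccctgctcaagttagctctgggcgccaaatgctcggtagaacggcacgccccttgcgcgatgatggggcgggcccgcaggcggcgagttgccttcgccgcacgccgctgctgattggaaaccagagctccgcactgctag
Psmb10: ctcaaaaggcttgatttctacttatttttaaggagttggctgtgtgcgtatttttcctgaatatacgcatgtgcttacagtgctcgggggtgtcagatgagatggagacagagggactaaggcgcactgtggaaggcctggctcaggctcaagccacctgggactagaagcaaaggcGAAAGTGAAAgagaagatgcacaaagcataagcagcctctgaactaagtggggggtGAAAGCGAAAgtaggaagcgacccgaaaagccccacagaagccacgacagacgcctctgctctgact
Psmb5: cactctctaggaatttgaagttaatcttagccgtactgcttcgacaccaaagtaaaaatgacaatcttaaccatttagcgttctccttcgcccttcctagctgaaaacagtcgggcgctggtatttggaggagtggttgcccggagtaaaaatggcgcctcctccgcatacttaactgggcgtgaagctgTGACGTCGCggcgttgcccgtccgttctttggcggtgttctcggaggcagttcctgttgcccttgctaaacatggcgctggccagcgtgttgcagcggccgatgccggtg

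Promoter entries were found for 37 of the 41 genes. The interferon letters were present in 3 of the 5 immunoproteasome and PA28 promoters (Psmb8, Psmb10 and Psme2, with 2 matches in Psmb10). They were present in 3 of 30 constitutive promoters, or 10.0%, and in 3.92% of all 33469 rat promoters of the same length. The antioxidant core was present in 7 of 30 constitutive promoters, or 23.3%, in 0 of the 5 immunoproteasome and PA28 promoters, and in 12.1% of all. The gamma-activated letters were present in 20.0% of the immunoproteasome and PA28 promoters, 10.0% of the constitutive ones and 8.87% of all. Letters for kappa B, GGG followed by any 2 bases and TTTCC, were in none of the 5, in 3.33% of the constitutive promoters and in 1.53% of all. The CCAAT box was in 40.0%, 53.3% and 37.5%, and is not marked above. No motif includes another, though matches may overlap. A match describes letters and is not evidence of binding, and no match says only that the letters are not in these 300 bases.

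The study asked how compounds and irradiation given around a spinal cord injury alter gene expression in the cord. Normal cord was taken in 3 arrays, and laminectomy at T10 without contusion in 3. The labels give no time between laminectomy and collection. Contusion was made at T10 with a weight of 10 g and a tip of 2.5 mm dropped from 25 mm, and the cord was taken 24 h later in 2 arrays with no further treatment. The remaining groups were contused in the same way, so that every treated group also carries the injury. Clenbuterol, an agonist of beta2-adrenergic receptors (2 arrays, 150 mg/kg as labelled), X-ray irradiation (3 arrays, 10 Gy) and tempol, a nitroxide that scavenges superoxide (3 arrays, 275 mg/kg), were each given 20 min after injury. BSO, buthionine sulfoximine, which blocks glutathione synthesis, was given at 150 mg/kg 24 h before injury (3 arrays). A last group received both agents at these doses, BSO 24 h before and tempol 20 min after injury (3 arrays). This makes 16 contused and 6 uninjured arrays. The labels do not state whether each array is a separate animal, so p-values measure the spread between arrays, which may be technical, and they state no sex, strain or age.

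Each array's signals had been scaled by the authors to a trimmed mean of about 250. Signals are given linearly for single arrays and as log2 differences between groups, with the standard error of a limma fit of 8 group means. Adjusted p-values are Benjamini-Hochberg values over all 31042 probe sets tested, and a gene was called at an adjusted p under 0.05. Every treatment was compared with the same 2 contusion arrays. Laminectomy 2 and normal 1 stood apart, with median correlations of 0.667 and 0.685 with the other arrays. Neuronal marker genes, 13 of 13 lower in contused than in uninjured cord, had summed signals of 7182 to 24652 on contused and 21430 to 44212 on uninjured arrays. All 9 measured oligodendrocyte markers were also lower, and all 7 neutrophil and 3 red cell markers were higher. Neutrophil markers summed to 1927 to 5003 on contused and 531 to 1714 on uninjured arrays, and red cell markers to 3196 to 16561 and 664 to 1516. In bulk cord, fewer cells of a type and less RNA per cell cannot be told apart, and the part of cell make-up in the values below was not tested.

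No proteasome gene was called in any of 12 comparisons of groups. All contused against all uninjured cord was the comparison with the most arrays. In it 24 of 41 genes stood higher in contused cord, against 50.4% of all genes, and 0 were called, against 0.443%. At an unadjusted p under 0.05, limma found 3 genes, Psmd13, Psma1 and Psmb3, against 11.2% of all genes. The median difference was 0.12 over the 34 constitutive genes, -0.11 over the 5 immunoproteasome and PA28 genes and 0.01 over all genes. Without single arrays the constitutive median ran from 0.06 (normal 2) to 0.27 (normal 1), and the other from -0.26 (laminectomy 3) to 0.15 (normal 1). The median 95% interval reached 0.517 either side for a constitutive gene and 0.95 for an immunoproteasome or PA28 gene. These are unadjusted intervals of single genes, and a call at an adjusted p under 0.05 needed a larger difference. Psmd13, whose interval lay above 0, was not called. For the typical gene, differences of this size, and larger ones short of the adjusted threshold, would not have been called.

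**Figure D1:**
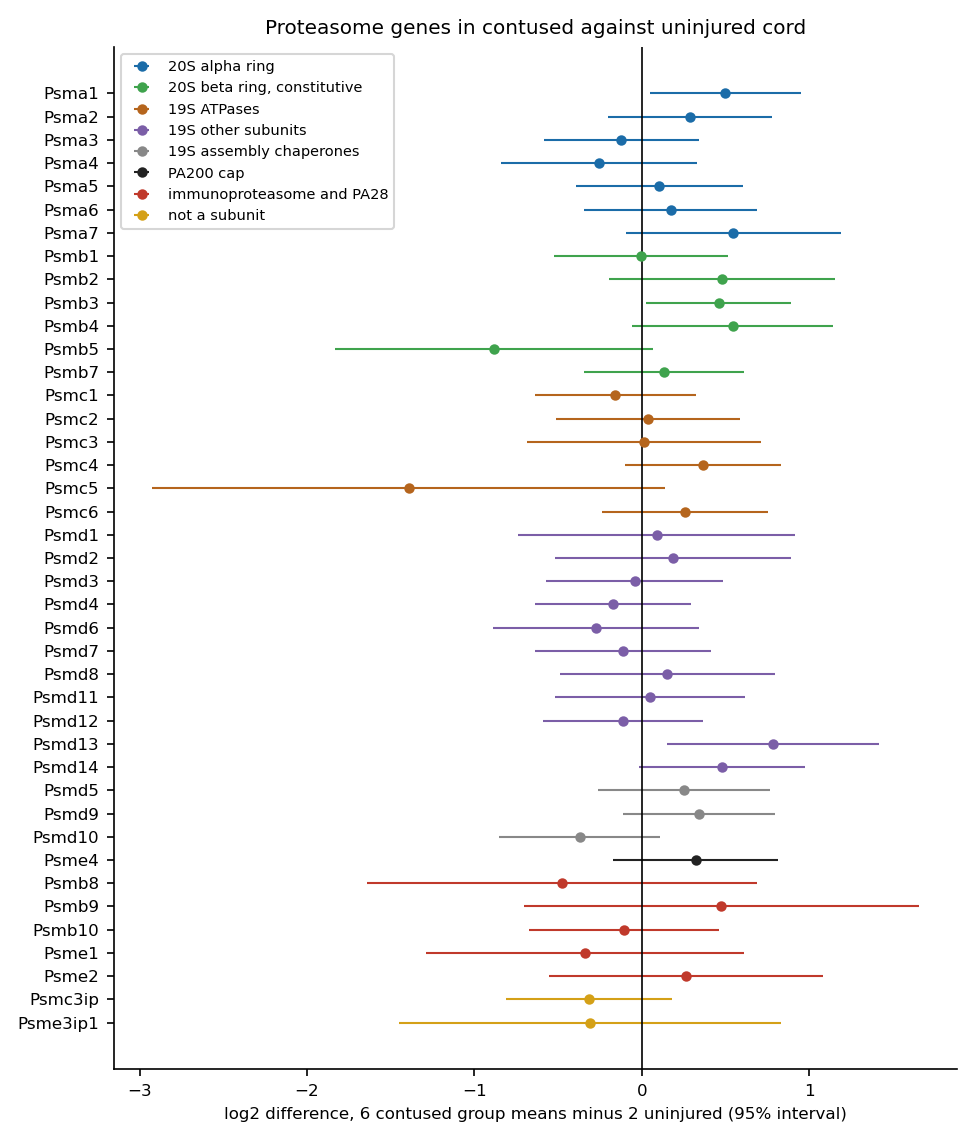
Log2 difference of each of the 41 genes, the mean of 6 contused groups minus the mean of 2 uninjured groups, with 95% intervals from the limma fit and colours by role. Most intervals cross 0; those of Psma1, Psmb3 and Psmd13 lie above it, and the widest is that of Psmc5.

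The constitutive genes were among the steadier signals on these arrays. Their SD between arrays of a group had a median of 0.407 on the log2 scale, from 0.246 for Psmb3 to 1.70 for Psmc5, against 0.774 over all genes. The 5 immunoproteasome and PA28 genes varied more, with a median SD of 1.00, from 0.486 for Psmb10 to 1.28 for Psmb9. The sets also differed in level, with a median mean log2 signal of 7.24 for these 5, 8.95 for constitutive and 7.70 for all genes. The part of signal level in the spread was not tested. Of the 41 genes, 39 had a mean signal above the median of all tested probe sets. Psmb9 and the ATPase gene Psmc5 were below it, so an alternative filter at that level left both out. Their contusion signals, 35.2 and 63.5 for Psmb9 and 14.1 and 51.2 for Psmc5, were low beside the trimmed mean of about 250.

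**Figure D2:**
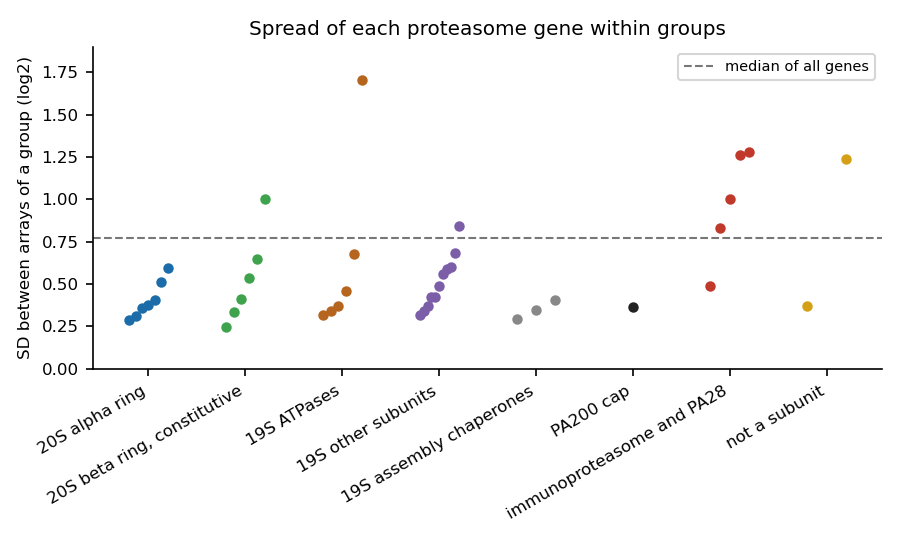
SD of log2 signal between arrays of a group for each gene, one point per gene, grouped by role, with the median of all genes as a dashed line at 0.774. Most constitutive genes lie below the line, and 4 of the 5 immunoproteasome and PA28 genes lie above it.

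In the alpha ring, 5 of 7 genes stood higher in contused cord. Psma1, an alpha ring subunit, had signals of 630.8, 947 and 633.4 in normal cord, 785.8, 671.2 and 906.7 after laminectomy, and 1151.5 and 1709.9 after contusion alone. Both contusion arrays lay above all 6 uninjured arrays. The difference of contusion from normal cord was 0.96 ± 0.41 (SE; adjusted p = 0.67) and from laminectomy 0.84 ± 0.41 (adjusted p = 0.925), the latter 0.56 without contusion 2. Over all 16 contused arrays Psma1 ran from 695.7 to 1709.9 with a median of 1025, against a median of 728.5 in uninjured cord. These sets overlapped, and Psma1 differed by 0.50 ± 0.22 (adjusted p = 0.423). Psma7, another alpha subunit, read 259, 259.1 and 85.7 in normal cord and 331.1, 686.9 and 270.9 after laminectomy. Its laminectomy arrays all lay above the normal ones, by 1.14 ± 0.52 (adjusted p = 0.88). This was 0.61 without normal 3 and 0.74 without laminectomy 2.

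In the beta ring, 4 of the 6 constitutive genes stood higher in contused cord and Psmb1 was level, at -0.00 ± 0.25. Psmb3, a structural subunit of the ring, ran from 627.6 to 1261.6 over contused arrays with a median of 847.2, and from 342.4 to 863.7 with a median of 618.3 over uninjured arrays. The sets overlapped, and the difference was 0.46 ± 0.21 (adjusted p = 0.442). Psmb4, also a structural subunit, differed by 0.54 ± 0.29 (adjusted p = 0.53). Psmb7, which carries the trypsin-like site, differed by 0.13 ± 0.23 (adjusted p = 0.884).

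Psmb5, which carries the chymotrypsin-like site, was the lowest of the beta genes, at -0.88 ± 0.45 (adjusted p = 0.519). Its uninjured signals were 2661.1, 699 and 574.4 in normal cord and 442.7, 5529.7 and 988.4 after laminectomy. The highest values came from normal 1 and laminectomy 2, the arrays that stood apart. Contused arrays ran from 330 to 2139.4 with a median of 531.7, and overlapped the uninjured ones. The difference was -0.37 without laminectomy 2 and -0.54 without normal 1, and across the alternative settings it ran from -1.28 to -0.03. The 2 other probe sets of Psmb5 gave 0.49 and 0.20, on the opposite side of 0.

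Among the 6 ATPases of the cap, 4 stood higher in contused cord, and their differences were small except for Psmc5. Psmc5 read 594.7, 281.7 and 98.4 in normal cord, 34.7, 759.3 and 347.3 after laminectomy, and 14.1 and 51.2 after contusion. The contusion arrays lay below all normal arrays but overlapped those of laminectomy. The difference was -3.24 ± 1.39 from normal (adjusted p = 0.67) and -2.96 ± 1.39 from laminectomy (adjusted p = 0.925). With clenbuterol and X-ray the gene read higher than with contusion alone. Psmc5 read 199.8 and 261.6 with clenbuterol and 227.3, 265.5 and 226.3 with X-ray, all above both contusion arrays. Those differences were 3.09 ± 1.52 (adjusted p = 0.935) and 3.15 ± 1.39 (adjusted p = 1). With tempol it read 19.9, 17.8 and 302, so that a single group held both low and high arrays.

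Of the 11 other cap subunits, 6 stood higher in contused cord. Psmd13, a lid subunit of the cap, read 86, 129.8 and 104.1 in normal cord, 237.2, 46.1 and 134.8 after laminectomy, and 256.5 and 197.5 after contusion. Over all contused arrays it ran from 73.2 to 339 with a median of 199.4, against a median of 117 in uninjured cord. The sets overlapped. At 0.78 ± 0.30 (95% interval 0.15 to 1.42, adjusted p = 0.348) it had the smallest p of the 41 genes. The difference was 0.46 without laminectomy 2, and it ran from 0.39 to 1.05 over the alternatives. Psmd14, the deubiquitinase that strips ubiquitin from substrates, read 429.7, 309.7 and 254.6 in normal cord and 611.5 and 703.8 after contusion. These did not overlap, and the difference was 1.02 ± 0.45 (adjusted p = 0.688). Over all arrays its other probe sets gave -0.34 and -0.20 in contused cord, against 0.48 for the one used.

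The assembly chaperones Psmd5 and Psmd9 differed by 0.25 ± 0.25 and 0.34 ± 0.22 in contused cord, and Psmd10 by -0.37 ± 0.23. Psme4, which codes for the PA200 cap, differed by 0.32 ± 0.24, but its other probe sets gave -0.60 ± 0.28 and -0.28 ± 0.49. None was called. Of the 9 genes with several probe sets, 8 had probe sets that differed in sign between contused and uninjured cord, all but Psmc4. For the other 32 genes a single probe set is the only measurement.

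**Figure D3:**
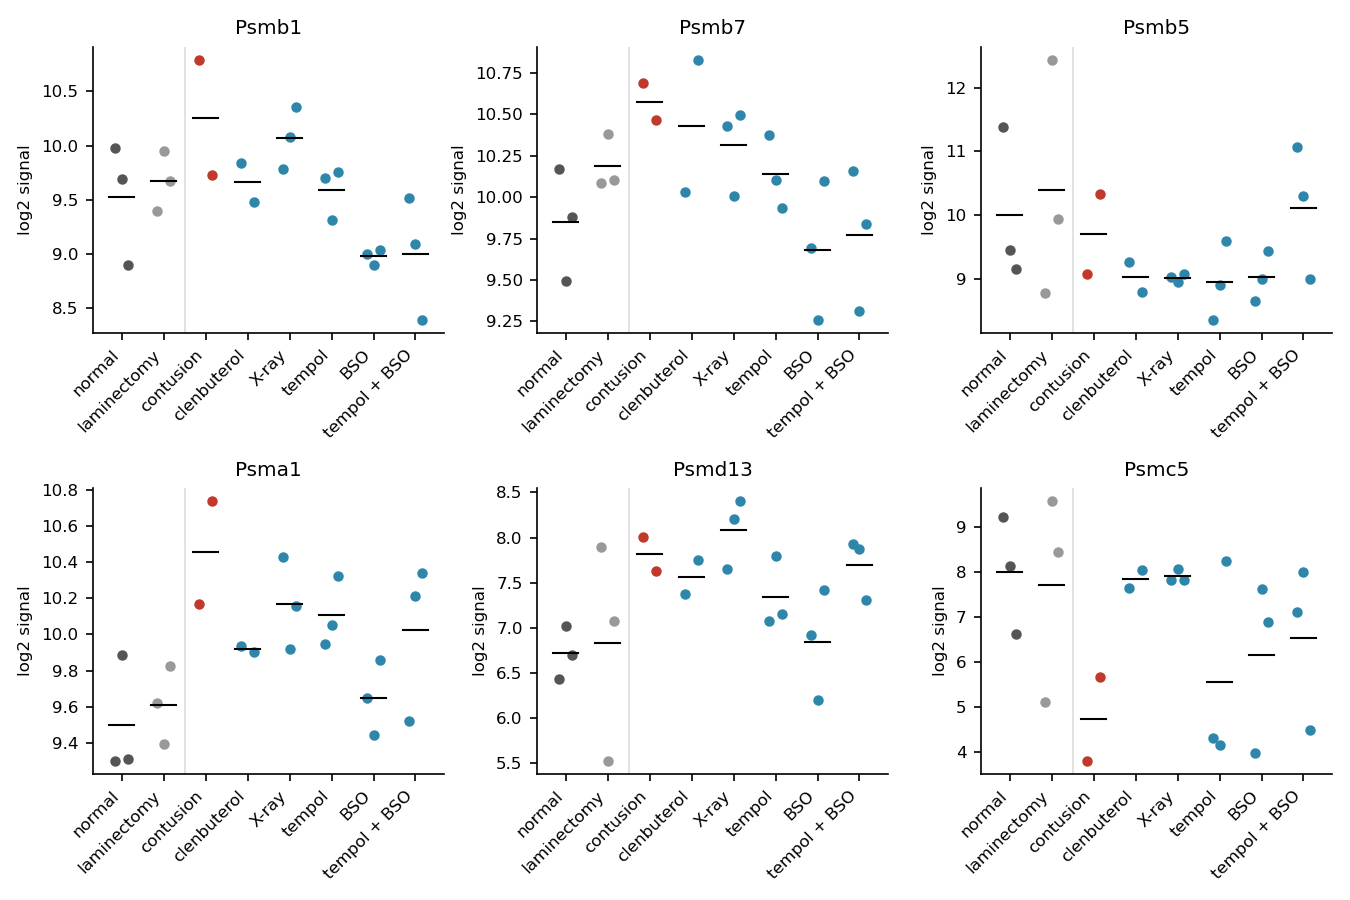
Log2 signal of 6 constitutive genes on each of the 22 arrays, one panel per gene with its own vertical scale, points for arrays and bars for group means. Psmb1 is lowest in the BSO and combined groups, and Psmc5 spans the widest range, with contusion at 14.1 and 51.2 on the linear scale.

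The 3 inducible beta genes lay on both sides of 0 in injured cord. Psmb8, the counterpart of Psmb5, read 75.5, 317 and 217.7 in normal cord, 268.1, 169.2 and 217.5 after laminectomy, and 356.8 and 184.3 after contusion. Psmb9, the counterpart of the unmeasured Psmb6, read 185, 98.1 and 24.9 in normal cord, 200.1, 131.4 and 45.9 after laminectomy, and 35.2 and 63.5 after contusion. Psmb10, the counterpart of Psmb7, read 339.6, 188.1 and 195.7, then 251, 242.5 and 131.6, and then 201.8 and 200.2. For each gene the contusion arrays lay within the range of the uninjured arrays or overlapped it. In all contused against uninjured cord, Psmb8 differed by -0.48 ± 0.56 (adjusted p = 0.811), Psmb9 by 0.48 ± 0.56 (adjusted p = 0.814) and Psmb10 by -0.11 ± 0.27 (adjusted p = 0.929). Without single arrays Psmb8 ran from -0.78 (normal 1) to -0.21 (clenbuterol 1), and Psmb9 from 0.07 (normal 3) to 0.79 (normal 1).

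Neither PA28 gene was called. Psme1 read 1310, 156.5 and 184.5 in normal cord, 395.3, 619.6 and 181.8 after laminectomy, and 179.5 and 710.5 after contusion. Its highest value came from normal 1. The difference in all contused cord was -0.34 ± 0.45 (adjusted p = 0.841), it was 0.15 without normal 1, and the gene's other probe set gave 0.67. Psme2 read 166.7, 93 and 161.1, then 119.4, 127.4 and 183.2, and then 92.5 and 490.7. Contusion 1 was just below the uninjured range and contusion 2 was above it, and the difference in all contused cord was 0.27 ± 0.39 (adjusted p = 0.86).

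The contrast between the sets was small beside the arrays' spread. The mean log2 signal of the 34 constitutive genes lay between 8.35 and 9.29 on uninjured and between 8.51 and 9.12 on contused arrays. That of the 5 immunoproteasome and PA28 genes lay between 6.98 and 7.98 on uninjured and between 6.59 and 8.40 on contused arrays. The within-array difference of the means, the inducible minus the constitutive set, averaged -1.48 with an SD of 0.59 over contused arrays and -1.36 with an SD of 0.32 over uninjured arrays. Only the change of this difference between groups has a meaning, since probe sets differ in response. The groups differed by less than either SD. Psmb8 minus Psmb5 averaged -2.19 with an SD of 1.72 over contused arrays and -2.60 with an SD of 1.98 over uninjured arrays. For Psmb10 minus Psmb7 the means were -2.48 (SD 0.68) and -2.27 (SD 0.46).

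**Figure D4:**
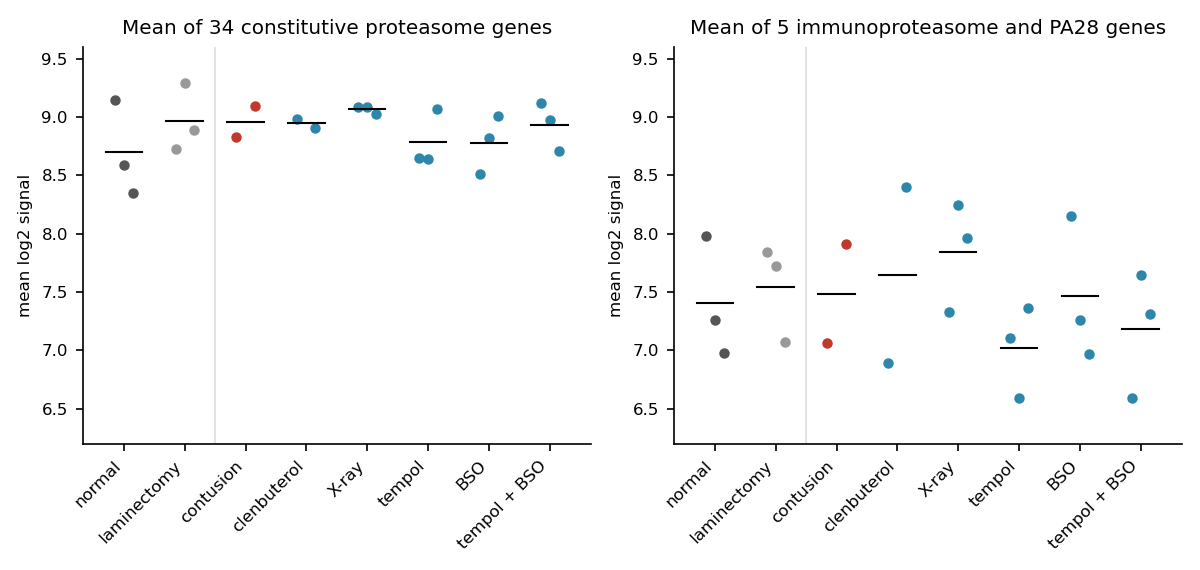
Mean log2 signal of the 34 constitutive genes (left) and of the 5 immunoproteasome and PA28 genes (right) on each array, with bars for group means. Arrays of the right panel spread from 6.59 to 8.40 and those of the left from 8.35 to 9.29, and in both the contused arrays overlap the uninjured ones.

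After laminectomy, 32 of 41 genes stood above normal, against 49.3% of all genes, with medians of 0.31 over constitutive and 0.08 over immunoproteasome and PA28 genes. Without normal 3 these medians were 0.09 and -0.34, and without normal 1 the constitutive one was 0.47. None was called, against 0.0141% of all genes. At an unadjusted p under 0.05 limma found 1, Psma7, against 5.41%. After contusion, 28 genes stood above normal, against 51.4% of all genes. Medians over the same sets were 0.34 (0.22 without normal 2, 0.58 without normal 1) and 0.09 (-0.55 without contusion 2). Here 0 were called, against 0.0633% of all genes, and 3 had an unadjusted p under 0.05 (Psma1, Psmd14 and Psmc5), against 7.41%. The comparisons share the normal arrays, of which normal 3 had the lowest constitutive mean, 8.35. Contusion against laminectomy left a constitutive median of -0.00, from -0.13 without laminectomy 1 to 0.23 without laminectomy 2. Here 22 of 41 genes stood higher, against 51.3% of all genes, and 0 were called, against 0%. Psmc5 alone had an unadjusted p under 0.05, against 5.26%. The immunoproteasome and PA28 genes had a median of 0.01 and a mean of -0.06 in that comparison, on opposite sides of 0, and a median of -0.61 without contusion 2.

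Treatments of contused cord were then set against contusion alone. The moderated F test over the 5 treatments called 0 of 41 genes, against 0% of all genes. At an unadjusted p under 0.05 it found 2, Psmb9 (F = 2.99, adjusted p = 0.851) and Psmb1 (F = 2.83, adjusted p = 0.879), against 5.22%. With 3 arrays against 2, the median 95% interval reached 0.98 either side for a constitutive gene and 1.80 for an immunoproteasome or PA28 gene.

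With X-ray, Psmb9 and Psmb8 lay on opposite sides of contusion. Psmb9 read 202.5, 529.7 and 519.3 with X-ray against 35.2 and 63.5 with contusion alone. All X-ray arrays lay above both contusion arrays, and the difference was 3.01 ± 1.07 (95% interval 0.78 to 5.25, adjusted p = 0.968). Psmb8 read 63.5, 65.9 and 80.1 against 356.8 and 184.3. All X-ray arrays lay below both contusion arrays, and the difference was -1.88 ± 1.05 (adjusted p = 1). Psmb10 differed by 0.52 ± 0.51 (0.29 without X-ray 3, 0.83 without X-ray 1). Psme1 differed by 0.34 ± 0.86 and Psme2 by -0.21 ± 0.74, and both turned with single contusion arrays: Psme1 was -0.65 without contusion 1 and Psme2 0.99 without contusion 2. The summed neutrophil markers were 3573 to 5003 on X-ray and 2200 to 3194 on contusion arrays, and the astrocyte markers 36256 to 38091 and 21466 to 24225. Only 4 of the 7 neutrophil markers stood higher with X-ray, with a median of 0.11, and 7 of the 8 astrocyte markers, with a median of 0.58. The sums of microglia and macrophage markers overlapped, at 10328 to 11421 and 10785 to 11601, as did those of lymphocyte markers, at 3505 to 4050 and 3853 to 4089. No listed cell type marker was at 0 on any array, nor was any listed partner gene of the proteasome or of antigen presentation. The lowest signal of all these genes, 2.6, was that of the partner gene Tap2 on array 1 of tempol plus BSO. The part of these cell types in the result was not tested. Over all 41 genes, 21 stood higher with X-ray, against 49.1% of all genes, and 0 were called, against 0%. Psmb9 and Psmc5 had an unadjusted p under 0.05, against 4.57%.

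Clenbuterol was compared with the same contusion arrays, and its values for this pair turned on single arrays. Psmb9 read 91.2 and 1000.5, both above contusion, and differed by 2.68 ± 1.17 (adjusted p = 0.929), or by 0.95 without clenbuterol 2 and 4.40 without clenbuterol 1. Psmb8 read 25.4 and 235.5, which overlapped contusion, and differed by -1.73 ± 1.15 (adjusted p = 0.985), or by -0.12 without clenbuterol 1 and -3.34 without clenbuterol 2. Psme1 read 159.7 and 157.3, both below contusion, by -1.17 ± 0.94 (adjusted p = 0.999), which was -0.18 without contusion 2 and -2.16 without contusion 1. Psme2 read 354.3 and 370.3, between the contusion arrays. The summed astrocyte markers were 32689 to 38648 with clenbuterol against 21466 to 24225 with contusion, and the neuron markers 15687 to 22216 against 7182 to 15040, with no overlap in either. Not every marker rose: 6 of 8 astrocyte and 9 of 13 neuron markers stood higher, with medians of 0.66 and 0.76. Of 9 oligodendrocyte markers 8 stood higher, with a median of 0.64, but their sums overlapped, at 51089 to 78441 and 34581 to 54255. The neutrophil markers overlapped, at 2300 to 3003 and 2200 to 3194, as did the microglia and macrophage markers, at 8848 to 10969 and 10785 to 11601. The part of these cells in the values was not tested. Of 41 genes 17 stood higher, against 48.3% of all genes, and 0 were called, against 0%. Psmb9 alone had an unadjusted p under 0.05, against 5.26%.

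The pair was also set side by side within each array, a comparison made after the values were seen and so given without a test. The log2 signal of Psmb9 minus that of Psmb8 was 1.67, 3.01 and 2.70 on the X-ray arrays and 1.84 and 2.09 on the clenbuterol arrays. These 5 were the highest of the 22 arrays. The next was normal 1 at 1.29, and contusion gave -3.34 and -1.54. In the rat reference Psmb8, Tap1 and Psmb9 are consecutive genes, and Tap2, which pairs with Tap1 in the peptide transporter, lies on the far side of Psmb8. Tap1 read 112.1, 11.9 and 48.3 with X-ray and 174 and 117.9 with contusion. It stood below contusion on every X-ray array, by -1.84 ± 0.73 (adjusted p = 1), or -0.96 without X-ray 2. With clenbuterol it differed by -0.26 ± 0.80, from -0.86 without clenbuterol 1 to 0.35 without clenbuterol 2.

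**Figure D5:**
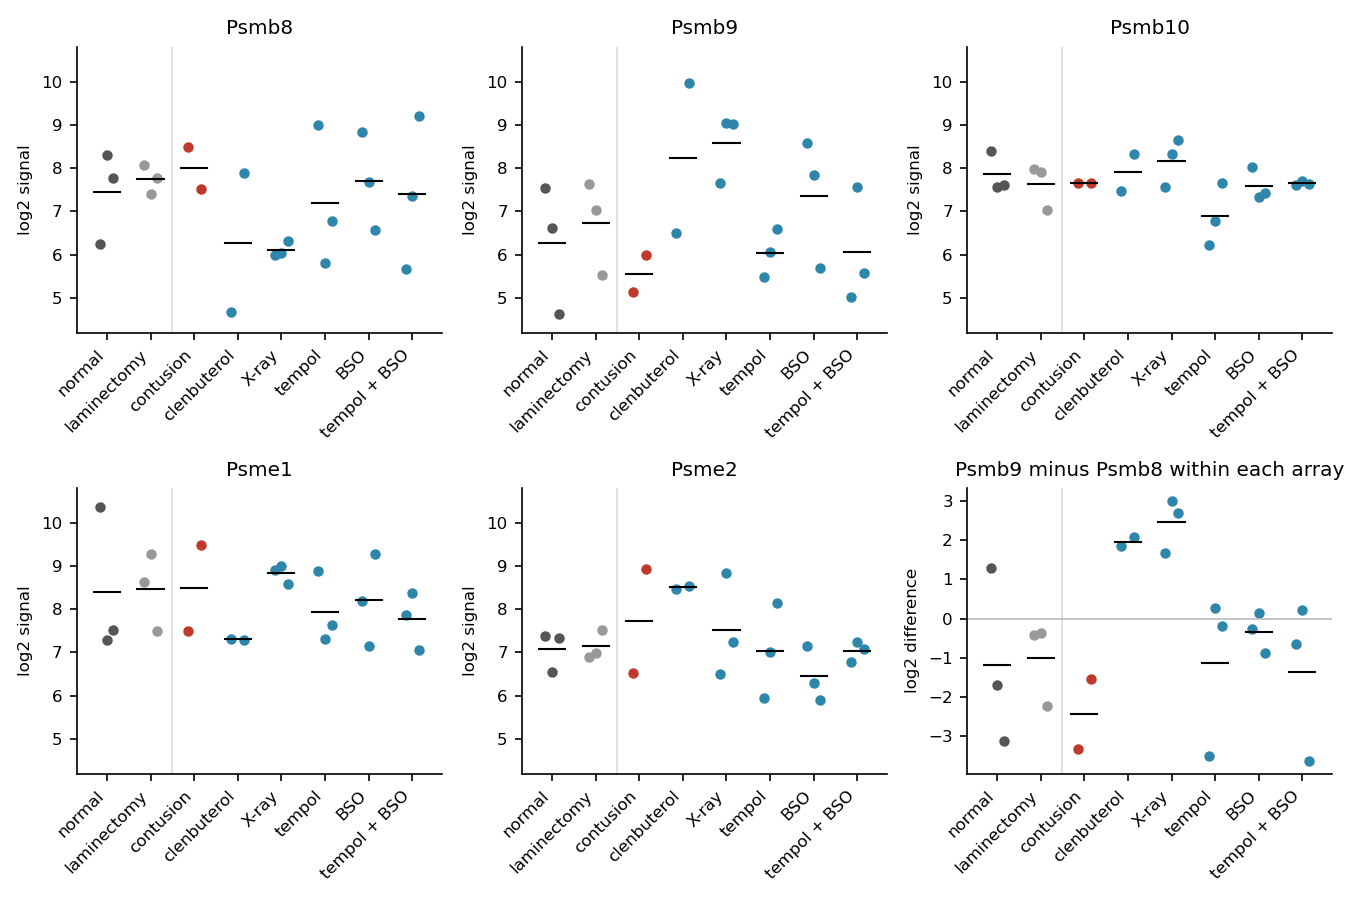
Log2 signal of the 5 immunoproteasome and PA28 genes on each of the 22 arrays, with bars for group means, and in the last panel the within-array difference of Psmb9 minus Psmb8. In that panel the X-ray and clenbuterol arrays, at 1.67 to 3.01, lie above the other 17, of which normal 1 is the highest at 1.29.

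With BSO, Psmb1, a structural beta subunit, and Psmb7 read lower than with contusion alone. Uninjured arrays ran from 476.5 to 1008.2 for Psmb1 and from 720.7 to 1332.8 for Psmb7, and overlapped the arrays with BSO. Psmb1 read 511.6, 476.5 and 526.3 with BSO and 730.8, 546.4 and 336.4 with tempol plus BSO, against 1771.1 and 847.6 with contusion alone. All 6 arrays that received BSO lay below both contusion arrays. The differences were -1.28 ± 0.47 for BSO (95% interval -2.26 to -0.30, adjusted p = 1) and -1.26 ± 0.47 for both agents (adjusted p = 1). They share the contusion arrays, of which contusion 1 was the highest of all 22 for Psmb1. Without it the differences were -0.75 and -0.73. Tempol alone gave 834.3, 637.9 and 864.3, which overlapped contusion. Psmb7 read 826.8, 613.5 and 1094.5 with BSO and 1144.6, 634.7 and 916.7 with both agents, all below the contusion values of 1650.2 and 1412.1. Its differences were -0.89 ± 0.43 and -0.81 ± 0.43 (adjusted p = 1 for each).

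The main effect of BSO, the mean of the BSO and combined groups minus that of contusion and tempol, was a comparison added after the data had been seen. It was -0.94 ± 0.31 for Psmb1 (95% interval -1.60 to -0.28, adjusted p = 1) and -0.63 ± 0.29 for Psmb7 (adjusted p = 1). These 2 genes had an unadjusted p under 0.05, against 3.87% of all genes, and 0 of 41 were called, against 0%. Over the constitutive genes the median was 0.05 (-0.06 without contusion 1, 0.11 without contusion 2), and 22 of 41 genes stood higher, against 50.8% of all genes.

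In the single comparisons, BSO had 14 of 41 genes higher than contusion, against 48.3% of all genes, and 0 called, against 0%. Psmb1 alone had an unadjusted p under 0.05, against 3.22%. The constitutive median was -0.15 (-0.27 without contusion 1, 0.02 without BSO 1), and that of the immunoproteasome and PA28 genes -0.27 (0.06 without BSO 2). Tempol plus BSO had 18 higher, against 50.2%, and 0 called, against 0%, and again Psmb1 alone had an unadjusted p under 0.05, against 3.56%. Its medians were -0.01 and -0.59, or 0.17 and 0.28 without contusion 2.

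Tempol alone had 12 of 41 genes higher than contusion, against 47.5% of all genes, and 0 called, against 0%. The constitutive median was -0.24 and that of the immunoproteasome and PA28 genes -0.71, or -0.06 and 0.45 without contusion 2. Psmb10 read 75, 109.8 and 202.5 with tempol and 201.8 and 200.2 with contusion. The arrays overlapped, and the difference was -0.76 ± 0.51 (adjusted p = 1), or -0.43 without tempol 1 and -1.15 without tempol 3. The single gene with an unadjusted p under 0.05, against 2.83% of all genes, was Psme3ip1, which codes for a protein that binds Psme3 and is not a subunit. It read 513.6, 12.7 and 370.3 with tempol and 664.5 and 628.3 with contusion, a difference of -2.27 ± 1.03 (adjusted p = 1) that was -0.57 without tempol 2.

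The interaction of tempol and BSO called 0 of 41 genes, against 0% of all genes, and no gene had an unadjusted p under 0.05, against 3.26%. The 3 genes with the smallest p were Psmd13, at 1.33 ± 0.77, Psme3ip1, at 2.27 ± 1.39, and Psmb5, at 1.82 ± 1.15 (adjusted p = 1 for each). That of Psme3ip1 was 0.57 without tempol 2, and that of Psmb5 was 1.19 without contusion 2. The main effect of tempol, also added after the data had been seen, called 0, against 0%, and no gene had an unadjusted p under 0.05, against 2.81%. Its medians were 0.02 over constitutive and -0.41 over immunoproteasome and PA28 genes, or -0.09 and -0.63 without contusion 1. The lid subunits Psmd7 and Psmd8 differed by 0.39 ± 0.32 and -0.62 ± 0.39, the first between 0.17 without contusion 2 and 0.62 without contusion 1, the second -0.33 without tempol 2.

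Genes that work with the proteasome were counted in contused against uninjured cord. Of 22 listed assembly and associated factors 21 were measured, 11 stood higher and 0 were called. Psmg2, a chaperone for assembly of the alpha ring, differed by 0.81 ± 0.36 (adjusted p = 0.439). Ubqln2, which carries ubiquitinated proteins to the proteasome, differed by -0.77 ± 0.24 (adjusted p = 0.229), and Txnl1, a thioredoxin-like protein bound to the cap, by 0.48 ± 0.24 (adjusted p = 0.502). Nfe2l1, shown for its known role and chosen after its value was seen, differed by -0.60 ± 0.30 (adjusted p = 0.506). Of 11 genes of ubiquitin and its activation 6 were measured, 2 stood higher and 0 were called.

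Of 19 partners in antigen presentation and interferon response 18 were measured, 12 stood higher and 0 were called, with a median of 0.29 against 0.01 over all genes. Irf1, an interferon-induced transcription factor, differed by 1.10 ± 0.43 (adjusted p = 0.349), Isg15, a ubiquitin-like modifier, by 0.94 ± 0.38 (adjusted p = 0.382), and Tap1 by -0.48 ± 0.38 (adjusted p = 0.697). Irf1 and Isg15 differed by 0.65 and 0.44 without laminectomy 2. Among the cell type markers, the neutrophil genes S100a9 and S100a8 rose by 2.70 ± 0.40 and 2.00 ± 0.39 (adjusted p = 0.00328 and 0.0318), and the beta-globin gene Hbb rose by 2.99 ± 0.34 (adjusted p = 0.000166). The neurofilament gene Nefl fell by 1.49 ± 0.29 (adjusted p = 0.0319), Ugt8, a myelin lipid enzyme, by 1.39 ± 0.21 (adjusted p = 0.00427), and the astrocyte water channel gene Aqp4 by 1.23 ± 0.26 (adjusted p = 0.0482). Among the 8 astrocyte markers 2 stood higher in contused cord, with a median of -0.52 over the list, and Aqp4 alone was called. In 22 refits that left out 1 array each, the calls of S100a9, Hbb and Ugt8 held in all 22, that of S100a8 in 12, that of Nefl in 11 and that of Aqp4 in 1, with adjusted p up to 0.0876, 0.106 and 0.143 for the last 3 (without laminectomy 2, normal 1 and laminectomy 2). Of 15 microglia and macrophage markers 12 stood higher and 0 were called, and of 16 measured lymphocyte markers 7 stood higher and 0 were called.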

How the data were processed

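RNA of T10 spinal cord, perfused with phosphate-buffered saline, was measured on 22 Affymetrix rat arrays. The deposited values are linear intensities, 1 per probe set. RMA is named in the submitters' processing notes, but the authors' intensities were linear, and each array's mean after trimming 2% at each end lay between 249.991 and 250.051, so the exact steps are not known. Log2 was taken with no further scaling. Of 31099 probe sets, 57 controls were left out. Of the other 31042, 20826 name 1 gene symbol, 436 several and 9780 none in the platform annotation. Groups came from the labels. One limma fit (version 3.58.1, R 4.3.3) of 8 group means, with lmFit and eBayes, had 14 residual degrees of freedom. Tests were two-sided. The fit was tested on simulated data.

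The naming rule took the 5 immunoproteasome and PA28 genes, their counterparts and the 3 genes with the smallest p in each comparison. Of partner genes it took those called and, per list, the 3 with the smallest p in contused against uninjured cord. Those of the ubiquitin list are not named. Some differences of the first kind are not printed: Psmb3 and Psmb4 after laminectomy, and Psmd13 for contusion against laminectomy. Among treatments these are Psma1 (BSO and its main effect), Psmd7 (tempol plus BSO), Psmb1 (tempol) and Psme3ip1 (main effect of tempol). Other genes were named after their values were seen, to show a role, a neighbour or a spread between arrays. Genes and lists were chosen with earlier results of these data known. Array number limits the precision. Alternatives were an added constant of 32, quantile normalization, a filter at the median signal, other variance settings, array weights, a replicate block, fits of the compared groups alone, other probe set summaries, and leaving out arrays, which for partner and marker genes was added after the data were seen.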

Additional observations from a re-analysis of the deposited data

Results flagged for a closer look

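For 3 constitutive genes, every array of one treatment lay above both contusion arrays and every array of another lay below them. The difference between the treatments was not tested in any case, and each rests on 2 or 3 arrays a group. Psma7 was 0.71 higher (log2) with clenbuterol than with tempol. Psmb2, a beta subunit, was 0.81 higher with clenbuterol than with X-ray. Psmb3 was 0.8 higher with X-ray than with clenbuterol, and 0.51 higher with BSO than with clenbuterol. The pattern was present in 3 of 41 proteasome genes (7.32%) and in 709 of all 14217 genes (4.99%). All groups hold 2 or 3 arrays, so single arrays were not tested as outliers.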

How the results depend on the processing

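No proteasome gene was called in any of 227 alternative counts by limma, the smallest adjusted p being 0.16. Of 404 alternative medians over the constitutive and inducible sets, 12 moved by more than the spread between arrays, and the others did not. Leaving out single arrays gave medians of the 5 immunoproteasome and PA28 genes from -0.61 (without contusion 2) to 0.17 for contusion minus laminectomy, and from -0.55 (without contusion 2) to 0.0883 for contusion minus normal. Against contusion they ran from -0.44 (without contusion 1) to 0.68 for clenbuterol, and from -0.65 (without contusion 1) to 0.99 (without contusion 2) for X-ray. They ran from -0.76 to 0.45 (without contusion 2) for tempol, and from -0.56 to 0.28 (without contusion 2) for tempol plus BSO, with 0.02 without array 1 of that group. The interaction ran from -0.17 (without tempol 2) to 1.03, and over constitutive genes from 0.0456 to 0.55 (without tempol 3). Only probe sets above the median signal gave -0.46 for clenbuterol, and averaging a gene's probe sets gave -0.0101 for tempol plus BSO. Of 809 alternative values of genes in the comparisons for which the naming rule took them, 7 reversed, all in contused minus uninjured cord. Psmb10 gave 0.10 without laminectomy 2 and normal 1, 0.0198 with array weights, and -0.26 to 0.03 (without normal 1) without single arrays. Psme1 gave 0.35 and 0.0841 under those settings, -0.62 to 0.15 (without normal 1) without single arrays, and 0.16 with its probe sets averaged. Values given outside that rule were not among the 809. Of these, Psme1 and Psme2 with X-ray and Tap1 with clenbuterol also changed sign without single arrays. The cause was not tested. Replicate numbers did not pair the arrays: deviations of same-numbered arrays had a median correlation of -0.0047, from -0.20 to 0.20, and 5 of 22 arrays correlated best with their own number. With the number as a replicate block, 13 of 13 counts were 0. No separate fit of the compared groups was made for contused minus uninjured cord, since all groups enter it. Groups of 2 and 3 arrays limit every comparison.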
